A study of Fukomys damarensis and Heterocephalus glaber and Mus musculus with 160 samples.

Results

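Gata4, Nkx2-5, Tbx5 and Hand2 are 4 genes of mouse cardiac transcription factors, described here by the histone marks found around them in heart and liver. Each gene was followed in a fixed window of the mouse genome (build GRCm38), and every peak overlapping that window in any mouse liver or heart list was taken. The windows were chr14:63190000-63290000 for Gata4, chr17:26830000-26860000 for Nkx2-5, chr5:119820000-119900000 for Tbx5 and chr8:57310000-57335000 for Hand2. They held 985 of the 1711588 peaks in 29 lists, of which 541 lay at Gata4, 120 at Nkx2-5, 139 at Tbx5 and 185 at Hand2. The 29 lists belong to a series of 160 samples, 116 of them with a peak list.

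These factors act together during heart development and in the adult cardiomyocyte. GATA4 is a zinc-finger protein and a partner of the homeodomain protein NKX2-5 and the T-box protein TBX5, and HAND2 is a basic helix-loop-helix protein needed to form the right ventricle. GATA4 is also active outside the heart, in the liver among other organs. Among the marks, trimethylation of lysine 4 on histone H3 (H3K4me3) lies at promoters, acetylation of lysine 27 (H3K27ac) at active promoters and enhancers, and monomethylation of lysine 4 (H3K4me1) at enhancers, active or not.

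The study mapped these marks by chromatin immunoprecipitation followed by sequencing (ChIP-seq) in liver and heart of 4 rodent species, of which only the mouse was used. All mice were C57BL/6J, wild-type, adult, male and 2 months old. Heart gave 6 lists of H3K4me3, 6 of H3K27ac and 5 of H3K4me1, and liver gave 4 lists of each mark from the same 4 animals. Libraries are named by their animals, and 1 heart sample, whose name joins the numbers of 3 animals, is called the pooled library. No animal gave both a heart and a liver library. The tissue was whole, so fewer cells carrying a mark and less mark per cell cannot be told apart.

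Lists held 18135 to 32785 H3K4me3 peaks in heart and 17431 to 19301 in liver, 57663 to 109724 and 56871 to 63479 for H3K27ac, and 20521 to 129914 and 86486 to 113889 for H3K4me1. Read depth is unknown, since peak lists carry no read numbers. The pooled H3K4me1 library was the smallest, at 20521 peaks over 9.28 Mb. The tissue labels were checked at markers of hepatocytes (Alb, Apob) and cardiomyocytes (Myh6, Ttn, Tnnt2). H3K27ac peaks lay at Alb and Apob in 4 of 4 liver and 0 of 6 heart libraries, and at Myh6 and Ttn in 6 of 6 heart and 0 of 4 liver libraries. The Tnnt2 window had H3K27ac peaks in all 10, over 1079 to 10928 bases in heart and 2570 to 3052 in liver. Of the heart H3K4me1 libraries, that of animal 17_3498 had 1 peak at Apob. The heart H3K4me3 library from animal 6837 stood apart. It had 3 H3K4me3 peaks at Alb, with a highest fold enrichment of 12.4, and 2 at Apob, with a highest fold of 13.6, whereas the other 5 heart H3K4me3 libraries had none. It also held H3K4me3 at Myh6 and Ttn, and its mean Jaccard index (bases covered by both lists over bases covered by either) was 0.489 with the other heart H3K4me3 lists and 0.55 with the liver lists. H3K4me3 tests are therefore given with and without it, and the overlaps and folds of H3K4me3 without it are given at the end of the account of overlaps. The pooled H3K4me1 library stood apart too. It had 0 H3K4me1 peaks at Myh6, Ttn and Tnnt2, and that of animal 17_3501 had 0 at Myh6. The Jaccard index of the pooled list with the other heart H3K4me1 lists was 0.0762 to 0.107. Among those other lists the index was 0.314 to 0.43. The index is limited by list size, and those other lists covered 49.4 to 110 Mb. A low value for so short a list therefore need not mean that its peaks lay elsewhere.

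**Figure D1:**
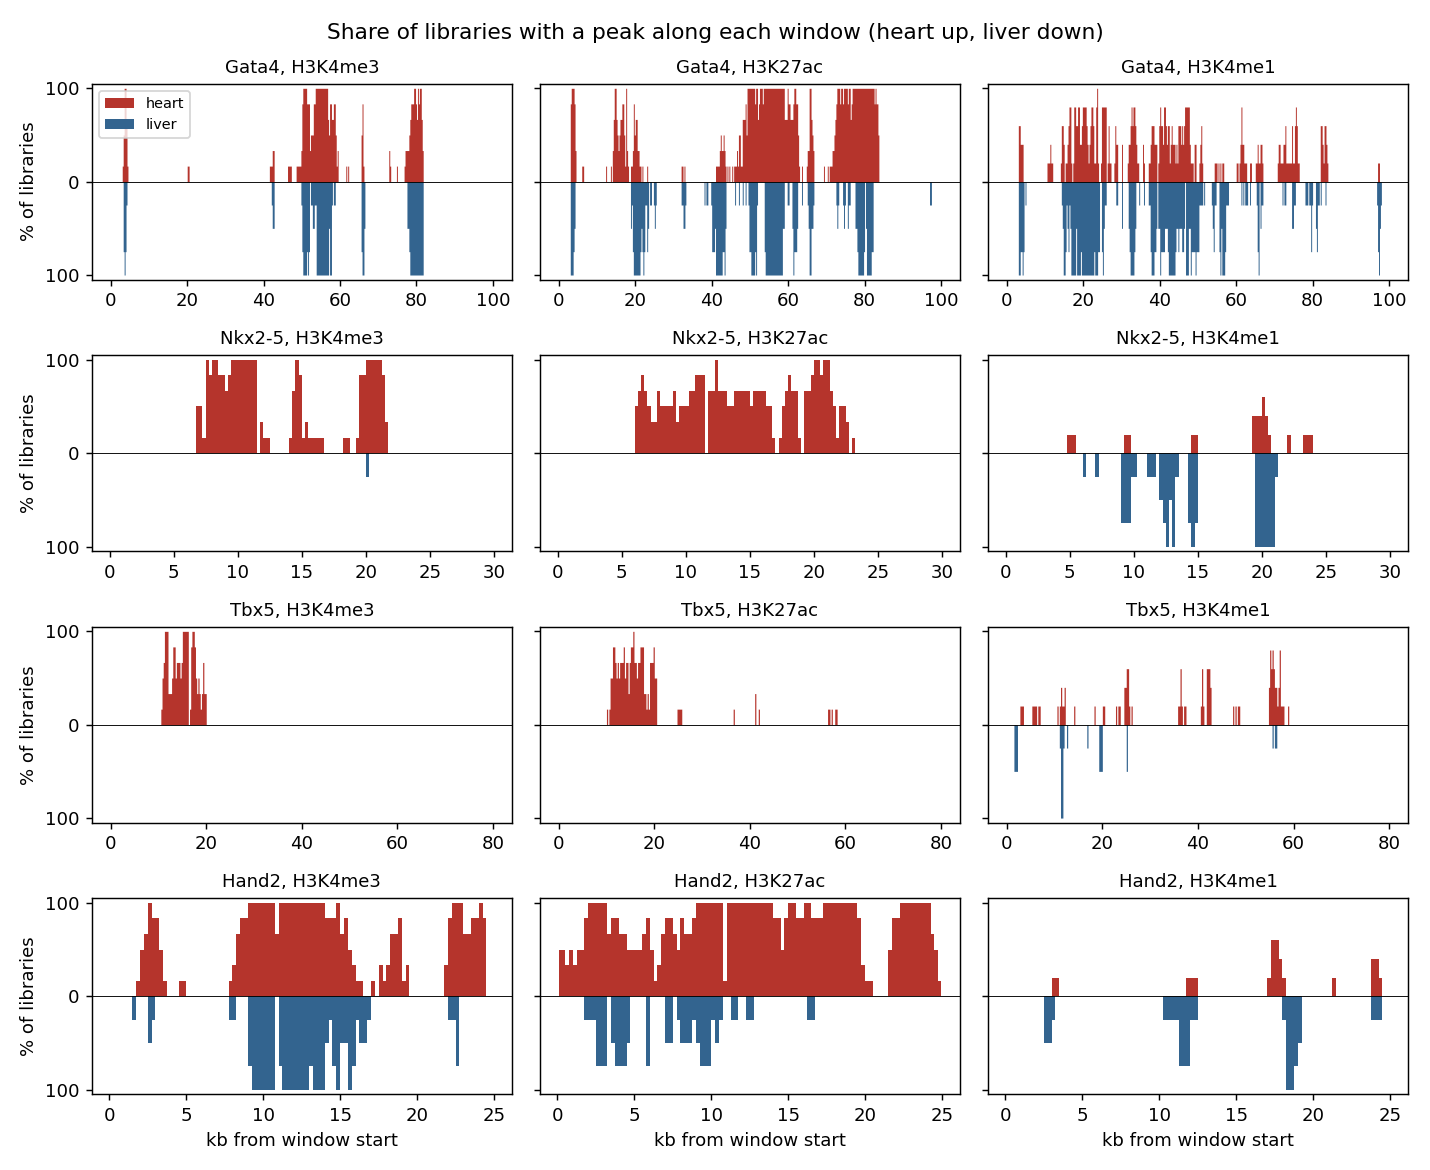
Share of libraries with a peak along the 4 windows for each mark, in steps of 250 bases, against the distance in kb from the start of the window. Heart libraries point up and liver libraries point down. H3K4me3 and H3K27ac at Nkx2-5 and Tbx5 lie almost wholly on the heart side, whereas Gata4 carries both marks in both tissues.

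Nkx2-5, an early marker of the cardiac lineage, carried H3K4me3 and H3K27ac in every heart library and almost none in liver. H3K4me3 covered 4607 to 9514 bases of its 30 kb window in the 6 heart libraries, with a median of 6892. In liver it covered 0, 0, 315 and 0 bases. The groups did not overlap: the lowest heart library lay far above the single liver library with a peak, that of animal 85923, whose fold was 5.83. The means were 7079 ± 1661 (SD, n = 6) and 78.8 ± 158 bases (SD, n = 4), a difference of 7001 bases (two-sided exact permutation p = 0.00476, the smallest that 6 against 4 libraries allow). Without the library of animal 6837 the difference was 6514 bases (exact permutation p = 0.00794, adjusted p = 0.116).

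Permutation p-values were adjusted by the Benjamini-Hochberg method over all tiles of the genome of the same width as the window with a peak of the mark, and a window was called below 0.05. For Nkx2-5 H3K4me3 the adjusted exact permutation p was 0.133, so the window was not called. No H3K4me3 or H3K4me1 tile of any width was called in either direction, although some tiles reached the smallest p-value possible. By this test a window could thus not be called for these marks, whatever its values. A missing call there does not show equal marking. Among 30013 tiles of 30 kb none was called in the direction of heart (0%), although 1916 had an unadjusted exact permutation p under 0.05 in that direction. Tiles in which every heart library lay above every liver library made up 4.39%, and the Nkx2-5 window was one of them. By limma on log2 of covered bases plus 100, an alternative, the window was called for heart (difference 5.62 on that scale, adjusted p = 7.59e-06), as were 3.89% of the tiles; over its 16 alternatives the adjusted p ran from 7.59e-06 to 0.293.

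H3K27ac covered 1736 to 15133 bases at Nkx2-5 in heart, with a median of 11736, and 0 bases in each of the 4 liver libraries. The heart libraries were spread widely: the pooled library and that of animal 17_36584, with 1736 and 3200 bases, lay below the other 4, which had 9963 to 15133. The heart mean was 9677 ± 5882 bases (SD, n = 6), and the window was called for heart (exact permutation p = 0.00952, adjusted p = 0.03). Of the 34944 tiles of 30 kb, 17.5% were called for heart, and 18.6% had every heart library above every liver library. The call was lost in 8 of the 10 fits that left out 1 library, with adjusted exact permutation p-values between 0.0433 and 0.116 over the 10. It held only without the pooled library or without animal 17_36584, the lowest heart libraries, and the difference stayed between 8586 and 11265 bases.

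H3K4me1 at Nkx2-5 went the other way. The 5 heart libraries covered 2428, 682, 919, 299 and 945 bases, and the 4 liver libraries covered 3283, 3427, 3114 and 6714. Every liver library lay above every heart library. Mean lengths were 1055 ± 810 bases in heart (SD, n = 5) and 4134 ± 1724 in liver (SD, n = 4), and the difference did not pass after adjustment (exact permutation p = 0.0159, adjusted p = 0.11). Such a separation with liver above heart was found in 13.4% of the 44427 tiles, and no tile was called for heart or for liver (0%). For equal numbers of peaks, each H3K4me1 list was cut to its 20521 peaks of lowest p-value, the length of the pooled list. Most liver peaks were dropped by this cut. The difference of -3080 bases shrank to -674 with such lists (exact permutation p = 0.159, adjusted p = 0.393). With 10 kb more on each side of the window it was -1992 (exact permutation p = 0.175, adjusted p = 0.375). By limma it was called for liver (adjusted p = 0.037), as were 13.4% of the tiles; over 16 alternatives the adjusted p ran from 0.037 to 0.614.

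Within the window, H3K4me3 in heart was concentrated at chr17:26837413-26841486, a region of 4074 bases found in 6 of 6 heart and 0 of 4 liver libraries. The authors' fold enrichment for the strongest peak there averaged 25.7 ± 9.57 over heart libraries (SD, n = 6). A second H3K4me3 region at chr17:26844271-26845029 was also found in all heart and no liver libraries, with a mean fold of 7.88 ± 4.12. A further one, chr17:26849449-26851703, was in 6 of 6 heart and 1 of 4 liver libraries, with a mean heart fold of 12.1 ± 5.19. The strongest H3K27ac region, chr17:26849155-26851673, overlapped it. Its mean fold was 13.1 ± 6.19 in heart, and it was called for heart over libraries (6 of 6 against 0 of 4, two-sided Fisher's exact test, adjusted p = 0.0312). The liver H3K4me1 region chr17:26849364-26851112 lay within it, and that mark was held there by 4 of 4 liver and 4 of 5 heart libraries. The liver H3K4me1 regions chr17:26842910-26843371 and chr17:26842073-26842786 were in 4 of 4 liver and 0 of 5 heart libraries (adjusted Fisher's exact p = 0.0934 each, the smallest that any H3K4me1 region reached). No region at Nkx2-5 was assigned to an exon, an intron or a promoter, because no gene model of this build was used here; this holds for the other genes too.

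Tbx5, a T-box factor of the atria and the left ventricle and of the forelimb, had no H3K4me3 or H3K27ac peak in any liver library. H3K4me3 in heart covered 3595 to 8376 bases of the 80 kb window, with a median of 5733. The highest value belonged to animal 6837 and the lowest to animal 17_36584, and the 4 liver libraries had 0 bases. The heart mean was 5727 ± 1750 bases (SD, n = 6; exact permutation p = 0.00476, adjusted p = 0.133), and without animal 6837 the difference was 5197 bases (exact permutation p = 0.00794, adjusted p = 0.117). No tile of 80 kb was called for H3K4me3 in heart (0% of 19453, with 1441 at an unadjusted exact permutation p under 0.05), and 5.14% had all heart libraries above all liver libraries, as Tbx5 did. By limma the window was called for heart (difference 5.81 on the same log2 scale, adjusted p = 1.22e-07), as were 4.38% of the tiles; over 16 alternatives the adjusted p ran from 1.22e-07 to 0.285.

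H3K27ac at Tbx5 covered 1579 to 12546 bases in heart, with a median of 7602, and 0 in liver. As at Nkx2-5, the libraries of animal 17_36584 and of the pool were the lowest, at 1579 and 2102 bases against 7486 to 12546 in the other 4. The mean was 6752 ± 4216 bases (SD, n = 6) and the window was called for heart (exact permutation p = 0.00952, adjusted p = 0.0283), with 19.6% of 17904 tiles called and 21.4% fully separated in that direction. Leaving out 1 library ended the call in 8 of 10 fits, with adjusted exact permutation p-values of 0.0401 to 0.108, and again it held only without animal 17_36584 or without the pool.

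Marked chromatin at Tbx5 in heart filled a short stretch near the start of the window. The strongest H3K4me3 region was chr5:119832538-119836276, with a mean fold of 20.9 ± 9.04 (SD, n = 6), and chr5:119830747-119832404 beside it had 18.3 ± 6.28. Both were in 6 of 6 heart and 0 of 4 liver libraries, as was chr5:119836669-119838633. The H3K27ac regions chr5:119834673-119838296 and chr5:119830748-119834619 overlapped them, with mean folds of 11.3 ± 5.13 and 9.05 ± 4.58 in heart, and both were called for heart (adjusted Fisher's exact p = 0.0312).

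H3K4me1 at Tbx5 lay both near the H3K4me3 of heart and farther out. The heart libraries covered 9118, 291, 8901, 3160 and 2817 bases and the liver libraries 471, 1614, 980 and 4442, so the groups overlapped. The means were 4857 ± 3950 (SD, n = 5) and 1877 ± 1773 (SD, n = 4), with an exact permutation p of 0.246 and an adjusted p of 0.478. No tile was called for heart or for liver (0% of 21404). Without the pooled library the difference moved from 2981 to 4122 bases (exact permutation p = 0.114, adjusted p = 0.292). The strongest heart region by fold, chr5:119874823-119876012, was 55.4 kb from the window start, away from the H3K4me3. It was held by 4 of 5 heart and 1 of 4 liver libraries, with a mean heart fold of 7.31 ± 3.24. In liver, only chr5:119831082-119832159 was in 4 of 4 libraries. It overlapped an H3K4me3 region of heart and was held by 2 of 5 heart H3K4me1 libraries.

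Hand2, which acts in the right ventricle and in limb, neural crest and other mesenchymal tissue, differed from Nkx2-5 and Tbx5 in that liver carried H3K4me3, with H3K27ac on few of the same bases. H3K27ac covered 13943 to 23045 bases of the 25 kb window in heart, with a median of 19732, and 2675, 4162, 2807 and 4780 bases in liver. Every heart library lay above every liver library. The means were 18731 ± 3811 (SD, n = 6) and 3606 ± 1032 bases (SD, n = 4), and the window was called for heart (exact permutation p = 0.00476, adjusted p = 0.0184). Of 39142 tiles of 25 kb, 14.5% were called for heart and 18% were fully separated. Hand2 kept this call in all 10 fits that left out 1 library, with adjusted exact permutation p-values of 0.0268 to 0.0422.

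H3K4me3 at Hand2 covered 7552 to 15133 bases in heart, with a median of 11220, and 7682, 6976, 6034 and 7606 bases in liver. The groups overlapped because the heart library of animal 6839, with 7552 bases, fell below 2 liver libraries. The means were 11245 ± 2610 (SD, n = 6) and 7074 ± 762 bases (SD, n = 4), which did not pass after adjustment (exact permutation p = 0.0238, adjusted p = 0.327). Without animal 6837 the difference moved from 4170 to 3892 bases (exact permutation p = 0.0317, adjusted p = 0.247). No tile was called for heart (0% of 31982, with 1991 at an unadjusted exact permutation p under 0.05).

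The main H3K4me3 region of Hand2, chr8:57318295-57326069, was held by all 10 libraries. The mean fold of its strongest peak was 60.3 ± 32.3 in heart (SD, n = 6) and 15.6 ± 4.75 in liver (SD, n = 4), values from separately called lists of different lengths that were not tested against each other. Within their own lists, the strongest Hand2 H3K4me3 peaks exceeded 62.2% to 93.7% of the other peaks by fold in heart and 32.5% to 45.1% in liver. An H3K4me3 region at chr8:57328058-57329096 was in 6 of 6 heart and 0 of 4 liver libraries, and in liver H3K4me1 covered nearly the same place, chr8:57328237-57329183, in 4 of 4 liver and 0 of 5 heart libraries. For H3K27ac, chr8:57331556-57334688 was called for heart (6 of 6 against 0 of 4, adjusted Fisher's exact p = 0.0312, mean heart fold 9.83 ± 3.71). The strongest H3K27ac region in heart, chr8:57320955-57329651, was in 6 of 6 heart and 2 of 4 liver libraries, and chr8:57317807-57320853 was in all 10.

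H3K4me1 was sparse at Hand2. The heart libraries covered 2635, 0, 2075, 0 and 559 bases and the liver libraries 1417, 1185, 1339 and 4737, so the groups overlapped. The difference of the means, 1054 ± 1226 (SD, n = 5) and 2170 ± 1714 (SD, n = 4), did not pass (exact permutation p = 0.31, adjusted p = 0.575). No tile was called for heart or for liver (0% of 50380). Without the pooled library the difference moved from -1116 to -852 bases (exact permutation p = 0.543, adjusted p = 0.773).

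Gata4 carried all 3 marks in both tissues, as Hand2 did, and was the member whose H3K27ac length was not called between them. H3K4me3 covered 5972 to 20508 bases of its 100 kb window in heart, with a median of 12283, and 13679, 12102, 10140 and 12131 bases in liver. The liver values lay inside the range of the heart values, which ran from animal 6839 to the pooled library. The means of 13217 ± 5050 (SD, n = 6) and 12013 ± 1450 bases (SD, n = 4) did not differ beyond the spread (exact permutation p = 0.681, adjusted p = 1). The difference was 431 bases without animal 6837 and -254 bases without the pooled library, so its sign rested on 1 library. Among 17155 tiles of 100 kb none was called for heart (0%, with 1318 at an unadjusted exact permutation p under 0.05).

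H3K27ac at Gata4 covered 25339 to 43600 bases in heart, with a median of 31188, and 24925, 26901, 21631 and 16884 in liver. Only 1 liver library, that of animal 85921, reached into the heart range. The means of 32027 ± 6820 (SD, n = 6) and 22585 ± 4379 bases (SD, n = 4) missed the threshold (exact permutation p = 0.0429, adjusted p = 0.0821), in a setting where 19.8% of 15220 tiles were called for heart. When covered bases were scaled to 1000000 bases covered by the library, Gata4 was called for heart (a difference of 189 bases on that scale, exact permutation p = 0.0143, adjusted p = 0.03, with 0.03 to 0.204 over its 16 alternatives).

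On average H3K4me1 covered more of the window at Gata4 than at the other 3 genes in both tissues. The heart libraries covered 34529, 791, 26046, 20323 and 21158 bases and the liver libraries 26155, 28617, 28217 and 28770. The value of 791 belonged to the pooled library, the one with the fewest peaks. The means were 20569 ± 12414 (SD, n = 5) and 27940 ± 1212 bases (SD, n = 4), a difference that did not pass (exact permutation p = 0.325, adjusted p = 0.576), and the difference of -7370 bases shrank to -2426 without the pool. It grew to -10860 without animal 33017 (exact permutation p = 0.0286, adjusted p = 0.117) and to -12515 with equal numbers of peaks (exact permutation p = 0.00794, adjusted p = 0.0729), with adjusted p-values of 0.0729 to 0.844 over its 16 alternatives. No tile was called for heart or for liver (0% of 17934).

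At Gata4 the strongest H3K4me3 region, chr14:63239628-63249027, spanned 9400 bases and was held by all 10 libraries, with mean folds of 52.9 ± 15.6 in heart (SD, n = 6) and 65.1 ± 18.6 in liver (SD, n = 4). The H3K27ac region over it, chr14:63237889-63252826, was also held by all 10 libraries. Some regions nevertheless differed between tissues. H3K27ac at chr14:63204092-63205493 and chr14:63205530-63207253 was in 6 of 6 heart and 0 of 4 liver libraries and called for heart (adjusted Fisher's exact p = 0.0312 each), with mean heart folds of 8.19 ± 3.94 and 7.87 ± 4.49. Beside them, chr14:63208676-63212455 was in all 10 libraries, with a mean fold of 6.31 ± 1.41 in heart and 14.3 ± 5.24 in liver. An H3K4me1 region, chr14:63204247-63214192, overlapped all 3 and was found in 4 of 4 liver and 5 of 5 heart libraries, the only H3K4me1 region of the 4 windows in all 9 libraries.

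**Figure D2:**
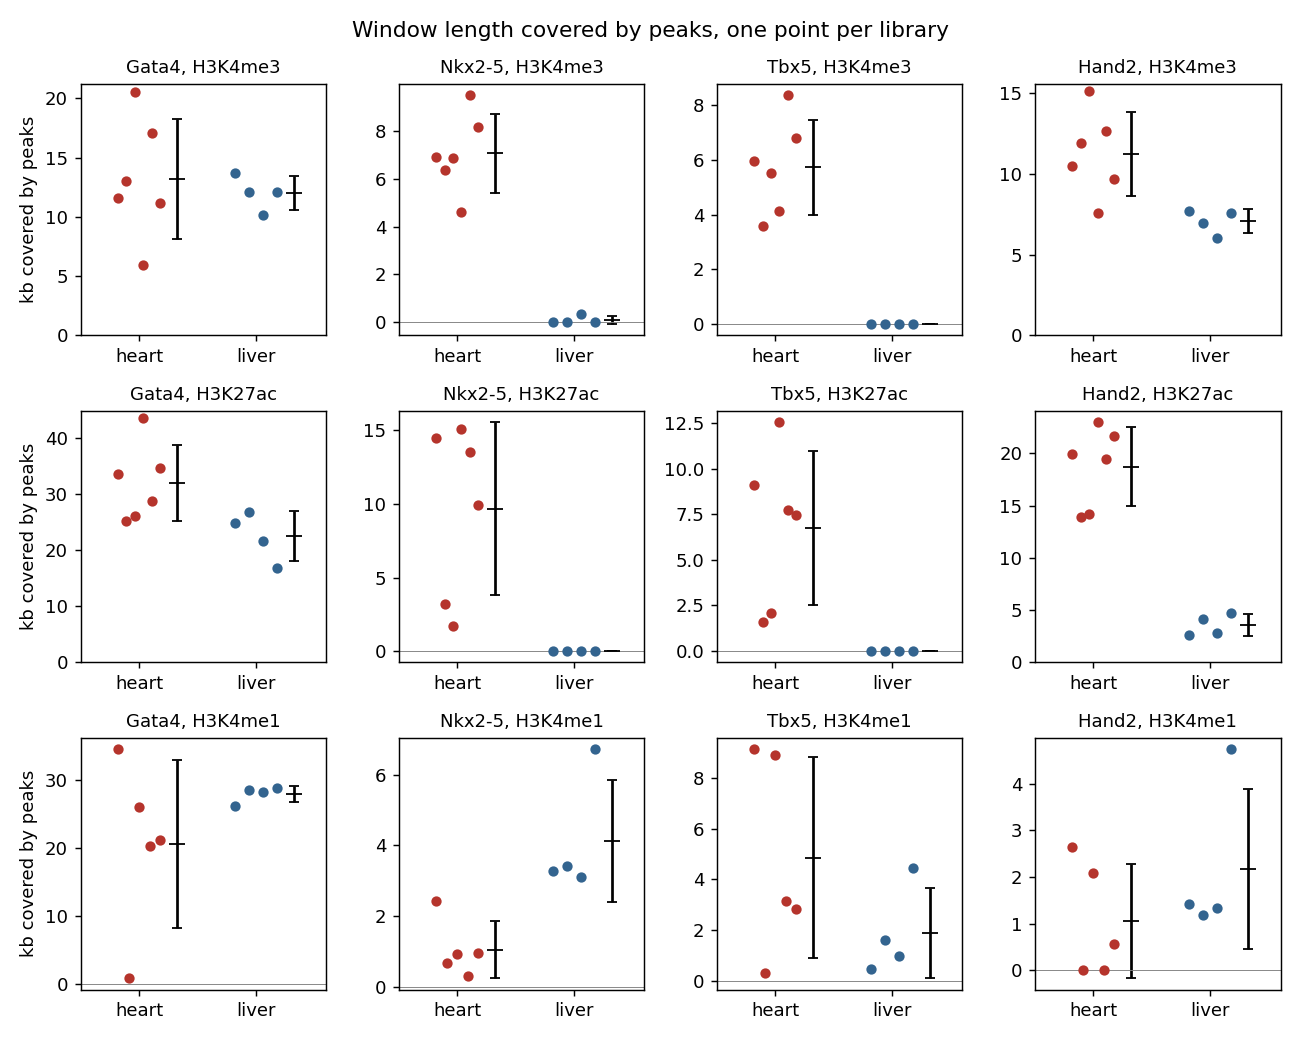
Length of each window covered by peaks, in kb, with 1 point per library for 3 marks and 4 genes (rows are marks, columns are genes), and the mean ± SD in black. Heart points lie above liver points at Nkx2-5 and Tbx5 for H3K4me3 and H3K27ac and at Hand2 for H3K27ac. At Nkx2-5 liver points lie above heart points for H3K4me1, and at Gata4 the tissues overlap for all 3 marks.

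The widest H3K4me3 region reaching into a window was taken as a value of its own, since broad H3K4me3 is known from genes of cell identity. At Gata4 it was 3088 to 10636 bases wide in heart, with a median of 4310, and 4036, 4402, 3578 and 4447 bases in liver. The pooled library and animal 6837, with 10636 and 9824 bases, were far above the other 4 heart libraries, and in their own lists these regions ranked 2 of 30067 and 6 of 29226 by width. At Hand2 it was 2009 to 8106 bases in heart, with a median of 5666, against 3068, 1778, 3080 and 3446 in liver, and heart ranks by width ran from 15 of 32785 to 883 of 18135. Groups overlapped at both genes, and the differences of 1806 and 2535 bases had exact permutation p-values of 0.405 and 0.0762 (adjusted p = 1 and 0.532). Without animal 6837 they were 1026 and 2144 bases, and without the pooled library 863 and 1990. When peaks within 500 bases of each other were merged they were 2761 and 924 (exact permutation p = 0.114 and 0.519, adjusted p = 0.61 and 1).

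At Nkx2-5 the widest region was narrower, 1998 to 3950 bases in heart with a median of 2765, against 0, 0, 315 and 0 in liver. At Tbx5 it was 975 to 3335 bases with a median of 1728 against 0 in all liver libraries. Both pairs of groups were separate (exact permutation p = 0.00476 each), but neither passed over the genome (adjusted p = 0.117 and 0.11), and no tile of any of the 4 widths was called for heart by this measure (0%, with 1184 of the 100 kb, 1798 of the 30 kb, 1288 of the 80 kb and 1873 of the 25 kb tiles at an unadjusted exact permutation p under 0.05). Without animal 6837 the differences at Nkx2-5 and Tbx5 were 2523 and 1589 bases (adjusted exact permutation p = 0.117 and 0.116), and with peaks within 500 bases merged they were 4106 and 5123 bases (adjusted exact permutation p = 0.117 and 0.195).

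**Figure D3:**
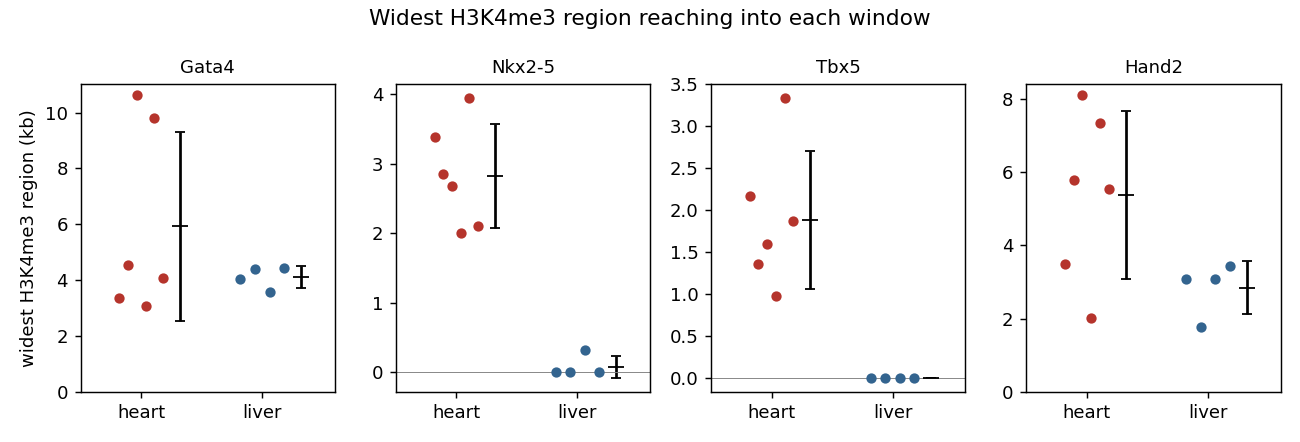
Width in kb of the widest H3K4me3 region reaching into each window, with 1 point per library and the mean ± SD in black. The pooled heart library and animal 6837 exceed 9 kb at Gata4, whereas heart and liver do not overlap at Nkx2-5 and Tbx5.

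Counted by regions, the 4 windows held 37 consensus H3K27ac regions, a consensus region being a run of bases covered in at least 2 libraries of the mark in either tissue. Of these, 10 were called for heart and 0 for liver (two-sided Fisher's exact test over libraries, adjusted over all 120878 regions of the genome), and at an unadjusted Fisher's exact p under 0.05 the counts were 13 and 1, a rule that 9.87% and 15.9% of all regions met for heart and liver. The 10 were 3 at Gata4, 3 at Nkx2-5, 3 at Tbx5 and 1 at Hand2, a share of 27%. Some of them lay side by side and need not be independent. For example, chr14:63204092-63205493 and chr14:63205530-63207253 had the same highest heart fold, 15.9. Regions of the whole genome were counted in the same way. Over the genome 5.04% of H3K27ac regions were called for heart and 10.2% for liver. In this mark the calls were the regions held by every heart and no liver library or the reverse, so those shares were the same. The count rests on group size: without any 1 of the 4 liver libraries no region was called (0 of the 4 windows). The 7 regions in all 10 libraries were 5 at Gata4 and 2 at Hand2.

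For H3K4me3, 31 regions lay in the windows, and none was called in either direction (0% of 24777 regions genome-wide for heart and 0% for liver; Fisher's exact test). The smallest adjusted Fisher's exact p of any region was 0.128, so even a region in every heart and no liver library could not be called. At an unadjusted Fisher's exact p under 0.05 there were 7 for heart and 0 for liver, against 4.95% and 6.12% of all regions. Held by every heart and no liver library were 6 regions, 3 at Tbx5, 2 at Nkx2-5 and 1 at Hand2, against 2.85% of all H3K4me3 regions, and none was held by every liver and no heart library, against 0.876%. Without animal 6837 the count was 7. For H3K4me1, 55 regions lay in the windows, 34 of them at Gata4, and none was called (0% of 164444 regions for heart and 0% for liver; Fisher's exact test). Here too no region could be, the smallest adjusted Fisher's exact p being 0.0934. At an unadjusted Fisher's exact p under 0.05 there were 1 for heart and 10 for liver of the 55, against 5.13% and 17.1% of all regions, so the liver count was near the background. Of the 55, 0 were in every heart and no liver library (0.53% over the genome) and 3 in every liver and no heart library (7.97%), 2 at Nkx2-5 and 1 at Hand2.

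**Figure D4:**
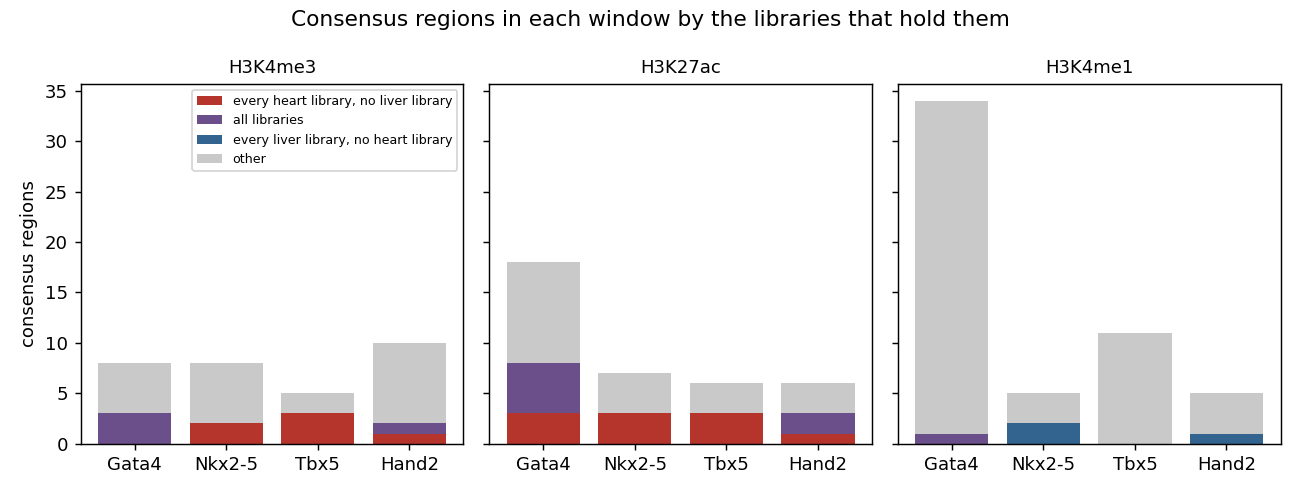
Number of consensus regions in each window for the 3 marks, divided by the libraries that hold them. All 10 H3K27ac regions found in every heart library and no liver library are shown in red, and Gata4 has the most regions shared by all libraries.

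The overlap of marks was described on bases found in at least 2 libraries of a tissue. For H3K4me3 and H3K27ac this asked for 2 of 6 heart but 2 of 4 liver libraries, and for H3K4me1 2 of 5 and 2 of 4. The rule was therefore looser in heart, which bears on every comparison of heart with liver bases below. The heart marks, unlike those of liver, came only partly from the same animals, so overlaps in heart join marks from different mice. In heart, H3K4me3 lay almost wholly under H3K27ac at every gene: 100% of its bases at Gata4, 98.5% at Nkx2-5, 95.8% at Tbx5 and 99.2% at Hand2. In liver, Gata4 was similar at 90.7%, but at Hand2 only 22.2% of 7647 bases of H3K4me3 also carried H3K27ac. Liver had no base of H3K4me3 or H3K27ac at Nkx2-5 and Tbx5 by this rule, and only H3K4me1, on 4121 and 2224 bases.

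Liver H3K4me1 at Nkx2-5 and Hand2 lay on places that carried other marks in heart. All 4121 bases at Nkx2-5 and all 2149 bases at Hand2 fell under heart H3K4me3 or H3K27ac, which covered 50.3% and 90.7% of those windows. At Tbx5 it was 55.4% of 2224 bases, with 12.3% of the window so marked, and at Gata4 48.7% of 30415 bases, with 37.8%. Of the Gata4 bases, 20628 lay under heart H3K4me1, the same mark. These shares describe 1 set of bases per gene and were not tested.

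**Figure D5:**
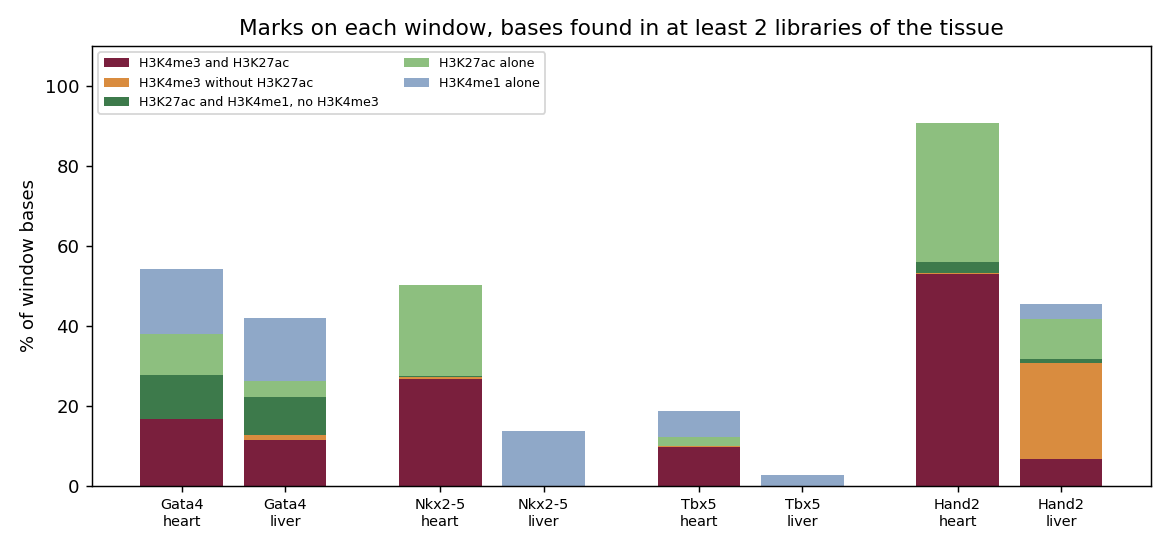
Percent of each window carrying combinations of the 3 marks in at least 2 libraries, by gene and tissue. Among the combinations at Hand2 in liver, H3K4me3 without H3K27ac is the largest (23.8% of the window). Liver Nkx2-5 and Tbx5 show only H3K4me1 (13.7% and 2.78%), and Gata4 carries all 3 marks in both tissues.

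Between tissues, 96.5% of the liver H3K4me3 bases at Gata4 were also marked in heart, and 73.9% of the heart bases were marked in liver. At Hand2 the shares were 90.5% and 52%. For H3K27ac, 77.6% of liver bases and 51.2% of heart bases were shared at Gata4, and 99.1% and 19.7% at Hand2. The liver bases of both marks at Gata4 and Hand2 were thus mostly among the heart bases by this rule. Being looser in heart, the rule itself leans that way, and its part in these shares was not tested. For H3K4me1, 67.8% of liver and 69.1% of heart bases were shared at Gata4, and none at Hand2.

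Without the heart H3K4me3 library of animal 6837, a choice made after seeing the data, 89.5% of liver and 81.2% of heart H3K4me3 bases were shared at Gata4, and 90.1% and 53.2% at Hand2. The share of heart H3K4me3 under H3K27ac was 100% at Gata4, 99.2% at Nkx2-5, 95.4% at Tbx5 and 99.2% at Hand2. The mean heart fold of the strongest H3K4me3 region (SD, n = 5) was then 23.6 ± 8.98 at Nkx2-5, 21.1 ± 10.1 at Tbx5, 66.3 ± 32.3 at Hand2 and 54 ± 17.2 at Gata4. The same regions were held by 5 of 5 heart libraries.

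As a share of the window, H3K27ac in heart covered 74.9% ± 15.2 at Hand2, 32.3% ± 19.6 at Nkx2-5, 32% ± 6.82 at Gata4 and 8.44% ± 5.27 at Tbx5 (SD, n = 6 each). Nkx2-5 and Gata4 did not differ beyond their spread. In liver the order was Gata4 at 22.6% ± 4.38, Hand2 at 14.4% ± 4.13, and 0% at Nkx2-5 and Tbx5 (SD, n = 4 each). The order depends on how long each window was drawn.

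The same H3K27ac test was read at 8 other cardiac factors, Gata6, Gata5, Tbx20, Tbx3, Mef2c, Hand1, Irx4 and Myocd, whose windows come from general knowledge of the build. They held 88 consensus regions, of which 13 were called for heart (14.8%, against 5.04% of all regions) and 0 for liver (adjusted Fisher's exact test), spread over 5 of the 8 genes. Mef2c, a MADS-box partner of GATA4, had 7 of its 34 regions called, with 18043 to 38382 covered bases in heart and 1136 to 1765 in liver. Tbx20, a T-box factor of the heart, had 3 of 12 called, with 9708 to 20439 bases in heart and 0 to 257 in liver. Gata6, the nearest relative of Gata4, had 1 of 11 called, and H3K27ac lay in both tissues, on 10034 to 21253 and 5663 to 6165 bases. Irx4 and Myocd, a ventricular homeobox factor and a muscle co-activator, had H3K27ac in all 6 heart libraries and no liver library, with 1 of 4 and 1 of 24 regions called. Hand1, the left-ventricular counterpart of Hand2, had no H3K27ac peak in any of the 10 libraries. Tbx3 had 0 of 3 regions called and leaned towards liver, with 3693 to 6856 bases in heart and 5578 to 7881 in liver. Gata5 had no consensus H3K27ac region, with a peak in 1 of 6 heart and 0 of 4 liver libraries.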

How the data were processed

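Liver and heart of C57BL/6J mice were profiled by ChIP-seq for 3 histone marks, with 1 narrowPeak list per library. The deposited lists give, for each peak, the authors' fold enrichment (a ratio over a named input), a −log10 p-value, a −log10 q-value and a score; per the submitters' processing notes MACS2 was used (version and aligner not given in the sources used here). GRCm38 is the build named by the file names. The lowest deposited −log10 q was 1.3. The deposited score was 10 times the −log10 q cut to a whole number in 1711569 of 1711588 peaks.

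Peaks were merged per library, and covered bases and widest regions were compared by two-sided exact permutation tests over libraries, adjusted over all tiles (chromosomes 1 to 19 and X) with a peak. Consensus regions (at least 2 libraries, overlap of 50% of the shorter) were tested with Fisher's exact test. Replicates were animals, and 1 file carried a tag (40M) that the labels do not explain. Over 126 pairs of lists of the same mark the highest Jaccard index was 0.83, so none was counted as a repeat. Named regions were, per window and mark, the one with the highest heart fold, up to 3 held by at least 2 liver libraries and up to 2 held by every heart and no liver library; a few more were named after their values were seen. Members and lists were chosen with earlier results of these data known. Marker windows come from general knowledge and were not checked against an annotation. Computation used Python 3.11.15, NumPy 2.4.6, pandas 2.3.3, SciPy 1.17.1, Matplotlib 3.10.9, R 4.3.3 and limma 3.58.1, and the tests were checked on simulated data. Alternatives covered the q threshold, list length, scaling, tile filter, window size, overlap and consensus rules, peak merging, limma and each left-out library. Some heart H3K4me1 libraries carried a vl code, whereas all liver libraries carried a do code. The only heart H3K4me1 libraries with a do code were that of animal 33017 and the pooled one, the shortest list. So few heart libraries could not give a small p-value, so this check cannot settle whether the code matters. With the do libraries alone the H3K4me1 differences were -10280 bases at Gata4, -2580 at Nkx2-5, 2828 at Tbx5 and -852 at Hand2. Their adjusted exact permutation p-values were 0.614 to 0.898.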

Additional observations from a re-analysis of the deposited data

Results flagged for a closer look

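Among the 24 groups of covered bases by gene, mark and tissue, 3 had 1 library far from the rest (Dixon's test at the 95% level, which chance alone passes in about 1 in 20 groups), all 3 in liver. H3K4me3 at Nkx2-5 covered 315 bases in animal 85923 and 0 in the other 3 libraries, a pattern in which any single library above 0 would stand out in this way. In 3 further groups all libraries were at 0, so the test could not be applied. H3K4me1 at Nkx2-5 covered 6714 bases in animal 85924 against 3114 to 3427 in the others. H3K4me1 at Hand2 covered 4737 bases in the same animal against 1185 to 1417. The H3K4me1 list of animal 85924 was also the longest of the 4 liver lists, with 113889 peaks, and had the highest fold, 46.7 against 17.8 to 20.6. Its Jaccard index with the other liver H3K4me1 lists was 0.355 to 0.39, against 0.545 to 0.569 among those lists. The part of list length in the covered bases was not tested. Without animal 85924 the H3K4me1 difference, heart minus liver, was -2220 bases at Nkx2-5 and -260 at Hand2.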

How the results depend on the processing

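No paired analysis was possible because no animal gave both a heart and a liver library. For the 16 differences, 83 of 88 alternatives and 139 of 156 fits leaving out 1 library kept the direction and the call. For H3K4me3 and H3K4me1 the permutation test could call no window in the main setting, so an unchanged call there says little. For the 12 counts of regions, 47 of 52 and 107 of 116 were within 1.5 times the reported count, and 40 and 95 were equal to it. These tallies include the called H3K4me3 and H3K4me1 regions, which were 0 in every fit and could not be otherwise in the main test. Scaled to 1000000 covered bases, H3K27ac at Gata4 was called (189, adjusted p = 0.03, exact permutation). With equal numbers of peaks, H3K4me1 at Hand2 changed sign to 83.2 bases, the H3K27ac regions called for heart (the same as those in every heart and no liver library) fell to 5, and the H3K4me1 regions in every liver and no heart library to 0. For equal numbers, lists were cut to the length of the shortest of each mark, 17431 peaks for H3K4me3, 56871 for H3K27ac and 20521 for H3K4me1. At a −log10 q of at least 4 the H3K27ac regions were 6. With limma on log2 of covered bases plus 100, H3K4me3 at Nkx2-5 and Tbx5 was called for heart (differences of 5.62 and 5.81 on that scale, adjusted p = 7.59e-06 and 1.22e-07) and H3K4me1 at Nkx2-5 for liver (-2.06, adjusted p = 0.037). The same limma fits called 3.89%, 4.38% and 13.4% of all tiles in those directions. Leaving out 1 library gave differences from -254 to 2653 bases for H3K4me3 at Gata4, 8586 to 11265 for H3K27ac at Nkx2-5 and 5593 to 7787 at Tbx5. It gave 0 to 13 H3K27ac regions called for heart, and 9 to 13 in every heart and no liver library. It gave 0 to 1 H3K27ac regions called for liver and 0 to 1 in every liver and no heart library, and for H3K4me1 0 to 1 in every heart and no liver library and 3 to 6 the other way. Read depth is unknown, so an absent peak says only that none passed the authors' threshold.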
